A study of Drosophila melanogaster with 6 samples.

Results

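The genes for cytosolic ribosomal proteins and their paralogues were described in Drosophila S2 cells with and without a transgene for the Hox protein AbdA. The members were every gene of the count tables whose symbol starts with RpL or RpS followed by a digit or P, together with sta, which encodes a small subunit protein; no gene was listed as Qm, and its gene was present under the symbol RpL10. This gave 93 of 14770 genes. There were 79 main copies, 10 paralogues whose main copy is listed beside them (RpS5b, RpS10a, RpS14b, RpS15Ab, RpS19b, RpS28a, RpL10Aa, RpL22-like, RpL34a and RpL37b) and 4 further genes named for their likeness to a ribosomal protein (RpL7-like, RpL24-like, RpLP0-like and RpS28-like). Of the main copies 30 encode small subunit proteins, 43 large subunit proteins, 3 the stalk proteins RpLP0, RpLP1 and RpLP2, and 3 proteins made as fusions to ubiquitin or a ubiquitin-like domain (RpL40, RpS27A and RpS30).

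Polyadenylated RNA had been sequenced from S2-DRSC, a wild-type line derived from late embryos (S2, 4 libraries), and from S2-DRSC-HA::AbdA, the same line stably transfected with HA-tagged AbdA (S2-AbdA, 2 libraries). Before RNA was taken, cells of both groups received copper sulphate at 10 µM for 24 h. The labels name no S2 cells transfected without AbdA, so AbdA and stable transfection cannot be told apart, and they give neither the promoter of the transgene nor whether the line is 1 clone. The descriptions tie replicates 1 and 2 of both groups to the authors' own comparison and do not do so for S2 replicates 3 and 4, which were therefore kept as a separate set (the second S2 set, replicates 1 and 2 being the first).

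The cytosolic ribosome is built from ribosomal RNA and many different proteins, most of them present once per ribosome, and its protein genes are among the most actively transcribed of a growing cell. In Drosophila the loss of 1 copy of many of these genes gives the Minute phenotype of slow development and short, thin bristles. Several paralogues are known from the germline, among them RpS5b from the ovary and RpL22-like from the testis, whereas the main copies are used in most tissues.

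The libraries held 34233132 to 69858688 counts. The transgene's gene, abd-A, had 819828 and 505607 counts in S2-AbdA, 996 and 2308 in S2 replicates 1 and 2, and 0 and 3 in S2 replicates 3 and 4. S2 cells resemble blood cells. The summed level of 11 blood cell markers ranged from 2066 to 10056 CPM (counts per 1e+06 counts of the library) over the S2 libraries. It was 6065 and 6976 CPM in S2-AbdA. S2 replicate 3 had the lowest sum, with nimC1 at 0 counts there and 3 in S2 replicate 4. Most of each sum came from Cg25C and vkg, at 957 and 677 CPM in S2 replicate 3. Of the markers, eater, Sr-CI and He were lower in S2 replicate 4 (0.744, 0.186 and 0.315 CPM) than in replicate 3 (1.07, 0.315 and 0.592 CPM). The others were lower in replicate 3. S2 replicate 3 also stood apart in its TMM scaling factor (trimmed mean of M-values), which was 0.752 against 1.0 to 1.10 in the other libraries. Genes are said to rise or fall at an adjusted p (Benjamini-Hochberg) under 0.10 in edgeR's quasi-likelihood test, fitted to the 9375 genes with enough counts, and fold changes are log2 differences after TMM scaling. The labels do not state whether replicates came from separate cultures; the p-values therefore reflect the spread among these libraries alone, part of which may be technical. In such bulk samples fewer cells of a type and less RNA per cell cannot be told apart.

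The main copies were all abundant and the paralogues spread over several orders of magnitude. Per kilobase of exons, the highest mean levels over the 6 libraries were those of RpL41, which encodes the smallest ribosomal protein (12405 CPM per kilobase), RpL39 (5943), which lines the peptide exit tunnel, and the stalk gene RpLP2 (5552). RpL41 lay above RpL39 in every library, at 8407, 9516, 22783, 13646, 11270 and 8809 CPM per kilobase in S2 replicates 1 to 4 and S2-AbdA replicates 1 and 2. RpL39 and RpLP2 did not keep their order: RpL39 ranged from 4540 to 8987 and RpLP2 from 3985 to 10324 CPM per kilobase. The lowest main copy per kilobase was RpL22 at 617, below the paralogues RpS14b (701) and RpL34a (639). RpL22 varied from 142 to 1000 CPM per kilobase between libraries, so this order did not hold in each of them.

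**Figure D1:**
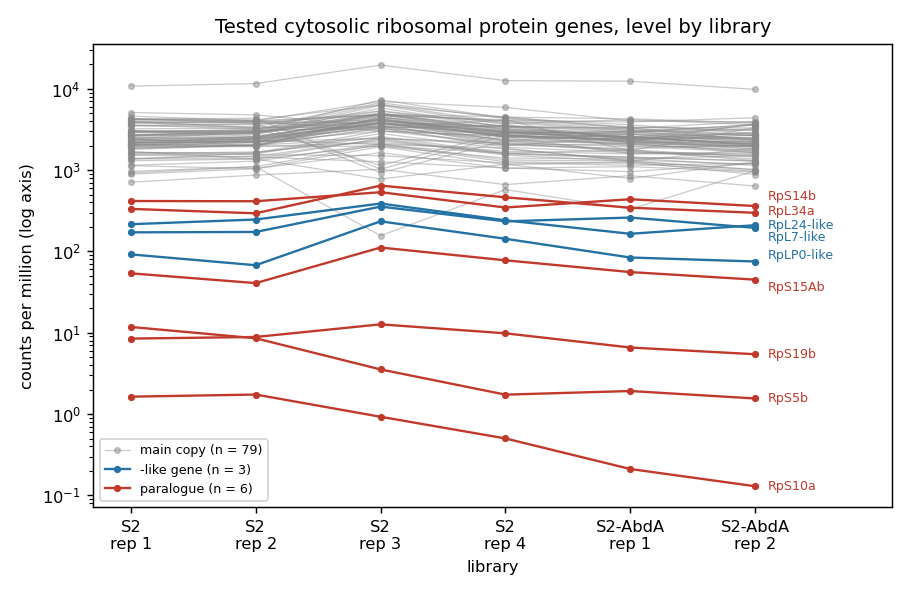
Level of each tested member in the 6 libraries, in CPM on a log axis, with 79 main copies in grey, 3 -like genes in blue and 6 paralogues in red; a line joins the values of 1 gene and marks no order of libraries. The main copies sit together near the top with a few dips in S2 replicate 3, and RpS19b, RpS5b and RpS10a lie far below them.

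The low end was held by paralogues. RpS19b (13.0 CPM per kilobase), RpS5b (5.09) and RpS10a (1.42) were detected in every library. RpL37b (1 to 10 counts) and RpL22-like (4 to 14 counts) were at the edge of detection. RpS28a and RpS28-like had at most 1 count in any library, and RpL10Aa had 0 counts in all 6, where 3 counts would amount to 0.0429 to 0.0876 CPM. These 5 genes had too few counts to be tested, which left 88 tested members: all 79 main copies, 6 paralogues and 3 -like genes.

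Together the members took 18.1% to 30.4% of all counts, and S2 replicate 3 was above the other libraries. Their summed share was 21.0% and 21.2% in S2 replicates 1 and 2, 30.4% and 22.1% in S2 replicates 3 and 4, and 19.2% and 18.1% in S2-AbdA; the 95% Wilson interval, which covers counting error only, reached at most 0.0137 percentage points to either side. The set means were 21.1 ± 0.132%, 26.3 ± 5.82% and 18.6 ± 0.740% (SD, n = 2 each). Both S2-AbdA libraries lay below all 4 S2 libraries, and they did so with abd-A left out of the total (19.5% and 18.3%). The smallest exact p that 2 libraries against 4 allow is above 0.05, so no test was made. S2 replicate 4 differed from replicates 1 and 2 by about a percentage point, whereas replicate 3 was higher by about 9 points. Among the members' classes, large subunit genes took 9.82% to 15.8% of counts, small subunit genes 6.80% to 11.8%, the stalk genes 0.710% to 1.41% and the fusion genes 0.652% to 1.18%. RpL5, a 5S RNA binding protein of the large subunit that was singled out after its values were seen, alone took 0.983% to 1.96%. Its exons span 3835 bases, and per kilobase it ranked only 26 among the members (3338 CPM per kilobase). All 10 paralogues came to 0.0713% to 0.131%. The median main copy stood at 2382, 2458, 3759 and 2673 CPM in S2 replicates 1 to 4 and at 2359 and 2080 CPM in S2-AbdA.

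Against S2 replicates 1 and 2, paralogues RpS10a and RpS5b fell in S2-AbdA, and no main copy passed the test in either direction. The main copy RpS3A did pass under some other processing, as given below. Of 88 tested members 0 rose and 2 fell, while of all genes tested 3.0% rose and 7.36% fell, or 10.4% in either direction. The count at an unadjusted p under 0.05 was 3 for all members and 1 for the main copies, and DESeq2 called 0 higher and 3 lower. The main copies' log2 differences ran from -1.01 to 0.24, with 70 below 0 and 9 above; their median was -0.24 beside -0.02 for all genes tested. By class, the medians were -0.25 for small and -0.25 for large subunit genes, -0.16 for the stalk and 0.01 for the fusion genes. Standard errors were of the size of 0.365 (RpS3A) and 0.551 (RpL22), so a main copy that missed the test is not shown to be unchanged.

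RpS5b (gene number 41807, dm3 chromosome 3R, 10726154 to 10727310), the paralogue of the small subunit gene RpS5a, was at 11.8 and 8.55 CPM in S2 replicates 1 and 2, 3.54 and 1.73 CPM in S2 replicates 3 and 4, and 1.92 and 1.55 CPM in S2-AbdA. S2-AbdA lay below S2 replicates 1 and 2 without overlap, and overlapped S2 replicates 3 and 4. It fell relative to S2 replicates 1 and 2 by 2.58 on the log2 scale (SE 0.516, adjusted p = 0.00789). Relative to S2 replicates 3 and 4 the value of -1.0 (SE 0.50, adjusted p = 0.163) did not pass the test, and the second S2 set was itself lower than the first (-1.58, SE 0.496, adjusted p = 0.0403). These 2 values depended on single libraries. The former was -1.58 and past the test without S2 replicate 4 (adjusted p = 0.00438) and -0.11 without S2 replicate 3, and the latter lost its call without S2 replicate 1 (-1.33, adjusted p = 0.159), and was -2.46 without S2 replicate 3 and -1.0 without S2 replicate 4. Its main copy RpS5a, at 3081 to 6726 CPM, had a value of -0.13 (adjusted p = 0.977) over S2 replicates 1 and 2.

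RpS10a (43321, 3R, 23478482 to 23479085), the paralogue of RpS10b, had 56 and 76 counts in S2 replicates 1 and 2, 50 and 35 in S2 replicates 3 and 4, and 10 and 6 in S2-AbdA. That is 1.64, 1.74, 0.926 and 0.501 CPM in S2 and 0.211 and 0.129 CPM in S2-AbdA. Both S2-AbdA libraries thus lay below all 4 S2 libraries, as in 34 of 93 members, while 0 members had both above. Over all genes tested 8.13% lay below in this way and 16.7% above. RpS10a fell over S2 replicates 1 and 2 (-3.33, SE 0.582, adjusted p = 0.00370) and over S2 replicates 3 and 4 (-2.42, SE 0.584, adjusted p = 0.0177). The gene lies within the span of tau, annotated on the opposite strand, and no source states whether counting used strand, so reads of both cannot be told apart. tau, looked up after the values of RpS10a were seen, had 18, 33, 5 and 10 counts in S2 and 6 and 7 in S2-AbdA. It also fell over S2 replicates 1 and 2 (-2.23, adjusted p = 0.0195) but was at -0.08 (adjusted p = 0.929) over S2 replicates 3 and 4.

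RpS3A (43768, chromosome 4, 85851 to 87833), a main copy and a small subunit gene, was at 3033 and 2987 CPM in S2 replicates 1 and 2, 4707 and 4161 CPM in S2 replicates 3 and 4, and 1713 and 1370 CPM in S2-AbdA. Both S2-AbdA libraries lay below all S2 libraries, as in 34 of 93 members and 8.13% of all genes tested. Over S2 replicates 1 and 2 the log2 difference of -1.01 (SE 0.365, adjusted p = 0.144) did not pass the test, and over S2 replicates 3 and 4 it did (-1.88, SE 0.374, adjusted p = 0.00681). The call over S2 replicates 1 and 2 depended on the libraries in the fit, with an adjusted p of 0.00108 where S2 replicate 3 was left out, 0.00192 where S2 replicate 4 was, and 0.653 where S2 replicate 1 was. It is the only member on chromosome 4. Of 76 other tested genes there, examined after its values were seen, 3 rose and 10 fell over S2 replicates 1 and 2, with a median of -0.35, beside 3.0% and 7.36% of all tested genes. Over S2 replicates 3 and 4, 9 rose and 27 fell, with a median of -0.69, beside 14.7% and 17.1% of all tested genes.

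**Figure D2:**
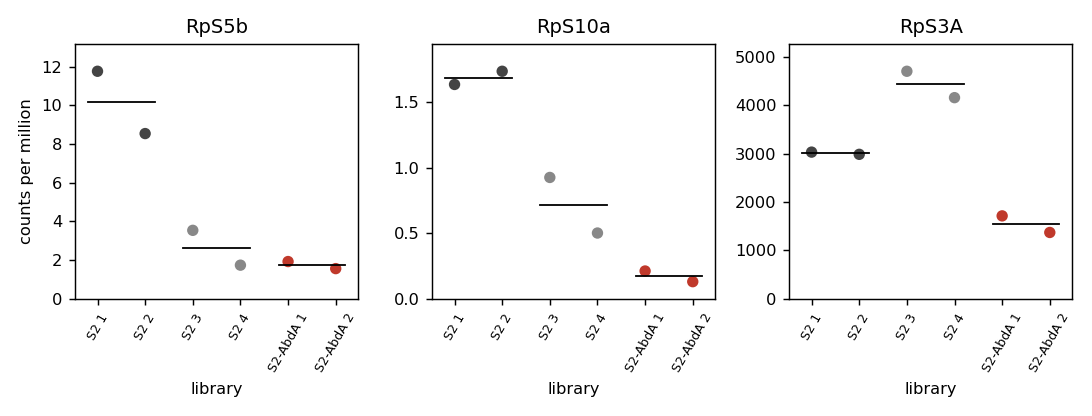
Level of RpS5b, RpS10a and RpS3A in each library, in CPM on a linear axis from 0; points are libraries and bars the means of S2 replicates 1 and 2, S2 replicates 3 and 4 and S2-AbdA. RpS10a and RpS3A, among 34 of 93 members in all, lie lower in both S2-AbdA libraries than in any S2 library. RpS5b in S2-AbdA overlaps S2 replicates 3 and 4.

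In the authors' deposited table, which holds 2122 genes, these same 3 members were listed and no other. That is 3 of 93 members (3.23%), beside 2122 listed genes where 14770 were counted, so members were listed less often than genes in general. The descriptions tie the table to replicates 1 and 2 of both groups. It is therefore not independent of the test over S2 replicates 1 and 2. The log2 ratios of the authors' deposited table were turned to S2-AbdA over S2. They were -3.30 for RpS10a, with a false discovery rate (FDR) of 2.28e-11, -2.53 for RpS5b (FDR 1.65e-12) and -0.97 for RpS3A (FDR 0.0103).

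Over S2 replicates 3 and 4 the picture was wider: 37 of 88 members fell in S2-AbdA and 0 rose, where 17.1% of all genes tested fell and 14.7% rose, 31.8% in all. The median member was at -0.93 and the median gene at -0.01. The count of falls was 14 of 30 small subunit genes, 14 of 43 large subunit genes, the stalk genes RpLP0 and RpLP2, and RpS27A of the fusion genes, which was named after its value was seen. Apart from RpS10a and RpS3A, the lowest were RpLP0-like (-1.63, adjusted p = 0.0237), whose yeast relative Mrt4 is a ribosome assembly factor, RpL23 (-1.49, adjusted p = 0.0327) and RpLP2 (-1.40, adjusted p = 0.0398). The paralogues RpS15Ab (-1.29), RpS19b (-1.27) and RpL34a (-1.16) also fell, and so did RpL24-like (-1.13). The 4 members above 0, RpL22 (0.63), RpL3 (0.45), RpL23A (0.41) and RpL4 (0.34), did not pass the test.

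The count moved with single libraries, and the median mainly with S2 replicates 3 and 4. It was 82 lower and 3 higher without S2 replicate 4 (median -1.35), which leaves replicate 3 alone in its set and assumed to vary like the other sets, and 14 lower without S2 replicate 3, with a median of -0.36. Leaving out S2 replicate 1, S2 replicate 2, S2-AbdA replicate 1 or S2-AbdA replicate 2 gave 14, 9, 3 and 2 lower, with medians of -0.94, -0.89, -1.06 and -0.87, close to the -0.93 with all libraries. With the replicate number as a block it was 16, and with a correction on exonic length 11, with a median of -0.35. On library size alone 15 fell, the median of all genes moved to 0.30 and the members' median to -0.54. The members thus lay 0.84 below the median gene on that scale and 0.92 below it after TMM scaling. The members' median minus that of all genes was -0.275 with the length correction. It was -0.368 without S2 replicate 3 and -1.39 without S2 replicate 4. The main copies are short, with a median exonic length of 944 bases against 2039 bases over the tested genes with a length. The part of this length difference in the members' values was not tested.

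The same libraries set against each other showed the other side of this difference. With S2 replicates 3 and 4 set over S2 replicates 1 and 2, the test found 20 members higher and 3 lower. Of all genes tested 18.1% were higher and 18.9% lower (37.0% in all). In both directions together the test called a smaller share of the members than of all genes. By direction, the members' share was larger among the higher calls and much smaller among the lower ones. Of the 88 members 78 lay above 0 and 10 below. The highest were RpLP0-like (1.59, adjusted p = 0.0228), RpL41 (1.38, adjusted p = 0.0386), RpS15Ab (1.34, adjusted p = 0.0357) and RpLP2 (1.24, adjusted p = 0.0543). RpLP2 was at 2446 and 2908 CPM in S2 replicates 1 and 2 and at 6235 and 3628 CPM in S2 replicates 3 and 4. RpL41 was at 2690 and 3045 CPM in the former and at 7290 and 4367 CPM in the latter. In both, the sets did not overlap and replicate 3 was the higher. The 3 lower members were RpS5b (-1.58), RpL23A (-1.11, adjusted p = 0.0814) and RpL3 (-1.01, adjusted p = 0.0968), the last a protein near the peptidyl transferase centre.

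Here the median moved mainly with S2 replicates 3 and 4, and the count with each library. Of 79 main copies, 65 had a CPM in S2 replicate 3 above both libraries of the first S2 set and 13 below both; for S2 replicate 4 these numbers were 45 and 22. The test called 5 higher and 2 lower without S2 replicate 3, with a median of 0.18 in place of 0.78, and 73 higher and 5 lower without S2 replicate 4, with a median of 1.19. Leaving out S2 replicate 1 or 2 gave 1 and 0 higher, with medians of 0.73 and 0.77, and leaving out either S2-AbdA library gave 11. Scaled on library size alone or by upper quartile factors 7 were higher, the median gene then lying at -0.27 or -0.15, and with the replicate block or a length correction 8. The members' median minus that of all genes was 0.177 with the length correction and 0.794 without it. Both comparisons with S2 replicates 3 and 4 share these 2 libraries, and those with S2-AbdA share its libraries, so their counts are not independent of each other.

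**Figure D3:**
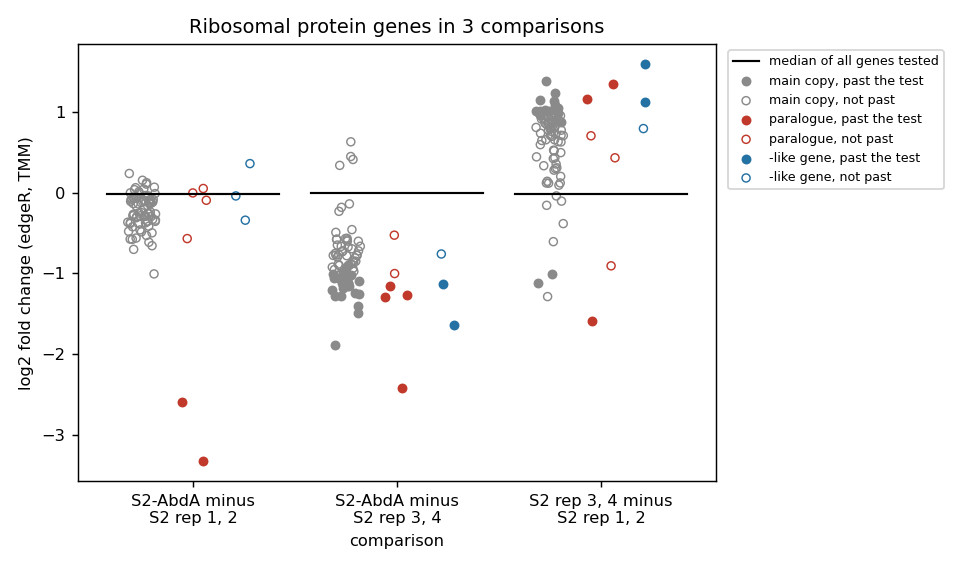
Log2 fold change of the 88 tested members in the 3 comparisons, by class, with filled points past the test and horizontal bars at the median of all genes tested. Against S2 replicates 1 and 2 the main copies cluster just below 0 with RpS5b and RpS10a far below, whereas most members lie below 0 against S2 replicates 3 and 4 and above 0 between the S2 sets.

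A small group of large subunit genes moved against the other members in 2 libraries. RpL22 was at 926 and 1100 CPM in S2 replicates 1 and 2, 156 and 576 CPM in S2 replicates 3 and 4, and 331 and 982 CPM in S2-AbdA replicates 1 and 2. RpL3 was at 4269, 4344, 1027, 2673, 2235 and 3740 CPM in the same order of libraries, and RpL23A, whose protein sits at the exit of the peptide tunnel, at 4287, 3779, 926, 2289, 1731 and 3343 CPM. In each of these genes S2 replicate 3 was the lowest library and S2-AbdA replicate 1 the second lowest.

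RpL4, at 3898, 3284, 1141, 2936, 2499 and 3612 CPM, and RpL18, at 1689, 1373, 777, 1184, 788 and 1261 CPM, had the same 2 libraries at the bottom. As log2 differences after TMM scaling, S2 replicate 3 minus replicate 4 was -1.47 for RpL22, -0.97 for RpL3, -0.95 for RpL4, -0.89 for RpL23A and -0.20 for RpL18. S2-AbdA replicate 1 minus replicate 2 was -1.60, -0.77, -0.56, -0.98 and -0.71. These differences lie between replicates of 1 set. In the test between the S2 sets RpL22 was at -1.29 and did not pass (adjusted p = 0.105).

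Across the 79 main copies, the differences S2 replicate 3 minus 4 and S2-AbdA replicate 1 minus 2 had a Pearson correlation of 0.867 (Spearman 0.659), against 0.380 over all 9375 genes tested. This is a description across genes, which are not independent replicates, and the points share the scaling of each library. S2 replicate 1 minus 2, a pair with no such gap, was also set against S2-AbdA replicate 1 minus 2. The Pearson correlation was -0.333 over main copies (Spearman -0.535) and -0.00683 over all genes. The spread of the log2 differences between replicates over main copies was 0.132 (SD) for S2 replicates 1 and 2, 0.509 for S2 replicates 3 and 4 and 0.341 for S2-AbdA. It was smaller in each set than over all genes (0.472, 0.863 and 0.553). All genes here include ones with few counts and more counting error, so these spreads were not compared at equal abundance. Over main copies, exonic length had a Spearman correlation of -0.358 with the difference S2 replicate 3 minus 4. It was -0.330 with S2-AbdA replicate 1 minus 2 and 0.378 with S2 replicate 1 minus 2, all given as descriptions. The part of exonic length in this pattern was not tested. RpL22 and RpL3 each overlap a further annotated RNA gene, as 33 of 93 members overlap another annotated gene, all but 6 of them small nucleolar RNA genes only.

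**Figure D4:**
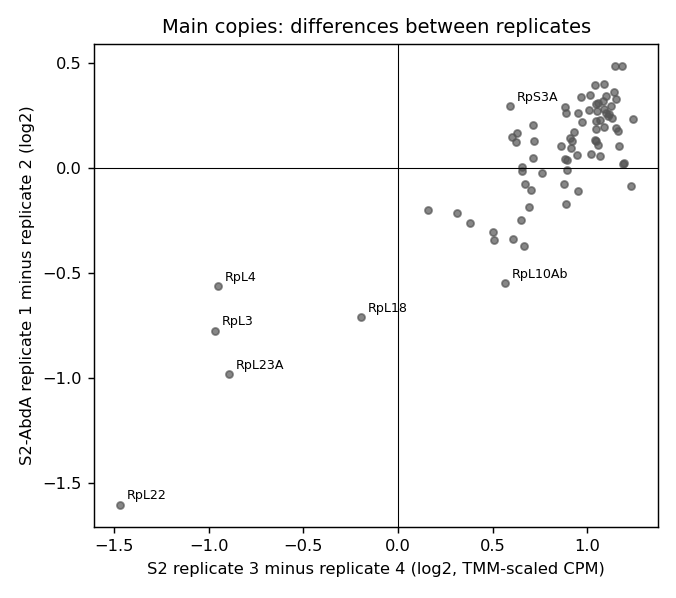
Log2 differences between replicates of TMM-scaled CPM over the 79 main copies, S2 replicate 3 minus 4 on the horizontal axis and S2-AbdA replicate 1 minus 2 on the vertical; each point is a gene. RpL22, RpL3, RpL4, RpL23A and RpL18 lie below 0 on both axes, apart from the other main copies.

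The paralogues differed in how much of their pair's counts they held, from 0% to 30.0%. RpL34a, the paralogue of RpL34b, held 16.7% and 16.0% of the pair's counts in S2 replicates 1 and 2, 30.0% and 27.4% in S2 replicates 3 and 4, and 23.1% and 19.8% in S2-AbdA. The 3 sets did not overlap: S2 replicates 1 and 2 were lowest and S2 replicates 3 and 4 highest. RpL34a itself was at 333, 294, 645 and 463 CPM in S2 and at 345 and 299 CPM in S2-AbdA; it was higher in the second S2 set than in the first (1.16, SE 0.380, adjusted p = 0.0478), while RpL34b was at 0.09 (adjusted p = 0.863) and ranged from 1147 to 1663 CPM. In S2-AbdA over S2 replicates 1 and 2, neither passed the test (adjusted p = 0.999 for RpL34a and 0.676 for RpL34b, the latter at -0.48).

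RpS14b held 24.6% to 28.4% of its pair in all libraries. RpS14a and RpS14b are near-identical neighbours on the X chromosome (7827775 to 7828710 and 7828931 to 7829832), and the split of reads between them is uncertain. The share of RpS15Ab was 2.90%, 1.98%, 3.32% and 3.71% in S2 and 2.14% and 2.12% in S2-AbdA, again highest in S2 replicates 3 and 4. RpS19b held 0.408% and 0.441% in the first S2 set, 0.385% and 0.511% in the second, and 0.402% and 0.344% in S2-AbdA. S2-AbdA lay below the first S2 set, and the second overlapped both.

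RpS5b held 0.332% and 0.252% in S2 replicates 1 and 2, 0.0525% and 0.0403% in S2 replicates 3 and 4, and 0.0566% and 0.0504% in S2-AbdA. RpS10a held 0.0677% and 0.0706%, then 0.0203% and 0.0184%, then 0.00943% and 0.00674%. For RpS5b the last 2 sets overlapped and both were below S2 replicates 1 and 2, whereas for RpS10a the 3 sets were apart, with S2-AbdA lowest. RpL22-like came to 0.166% of its pair in S2 replicate 3 (14 counts, exact 95% interval 0.0905% to 0.278%) and to at most 0.0319% elsewhere; RpL22, the other gene of the pair, was lowest in that library. For RpL10Aa, at 0 counts, 3 counts would be 0.00231% to 0.00490% of the pair.

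**Figure D5:**
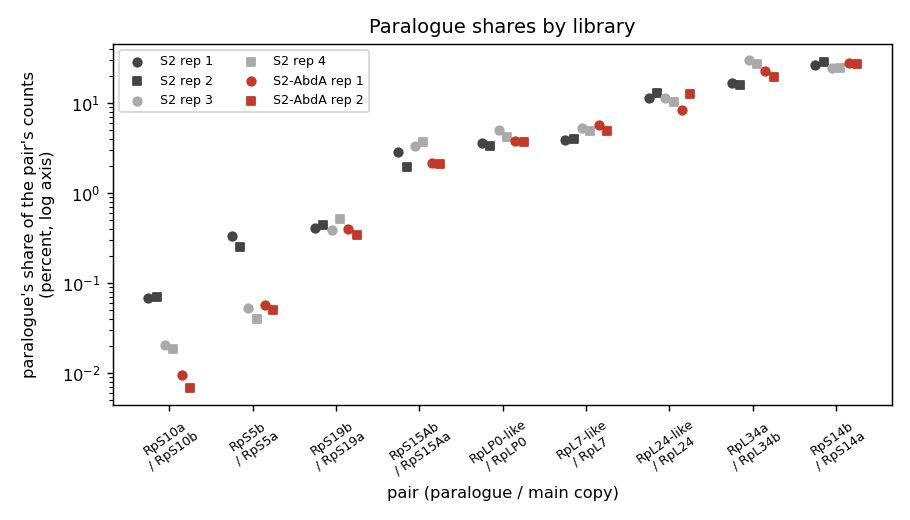
Share of each pair's counts held by the paralogue or -like gene, in percent on a log axis, for 9 pairs in the 6 libraries; black and grey are S2, red is S2-AbdA. RpS5b and RpS10a hold larger shares in the first S2 set than in any other library, and RpL34a smaller ones.

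Among the -like genes, RpL24-like, whose yeast relative Rlp24 is an assembly factor, came to 8.49% to 13.2% of the counts it shared with RpL24, RpL7-like to 3.92% to 5.74% beside RpL7, and RpLP0-like to 3.31% to 4.99% beside RpLP0. Over the 10 pairs of main copy and paralogue together the paralogues held 4.01% and 3.65% in S2 replicates 1 and 2, 4.17% and 4.28% in S2 replicates 3 and 4, and 4.56% and 3.96% in S2-AbdA. The second S2 set lay above the first without overlap, and the S2-AbdA libraries lay on either side of the second set and overlapped the first. RpL34a and RpS14b made up most of these counts.

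The germline markers were low in sum. Their summed level over 16 genes was 131, 141, 174 and 162 CPM in S2 and 93.9 and 76.3 CPM in S2-AbdA, and the testis genes nht and can had at most 1 count in any library. Of 13 tested, 0 rose and 2, aub and bam, fell over S2 replicates 1 and 2, beside 3.0% and 7.36% of all tested genes. The piRNA pathway gene aub went from 52.2 and 48.4 CPM in S2 replicates 1 and 2 to 5.15 and 8.13 CPM in S2-AbdA (-2.96, adjusted p = 0.00150), with 3.05 and 2.06 CPM in S2 replicates 3 and 4. In zpg, a germline gap junction gene, S2 replicates 3 and 4 were the highest, at 119 and 98.2 CPM, against 25.5 to 46.7 CPM elsewhere. Over S2 replicates 3 and 4, 3 of the 13 rose (vas, AGO3 and bgcn) and 3 fell (ovo, zpg and bam). Of all tested genes 14.7% rose and 17.1% fell there. The part of the germline markers' change in the values of RpS5b and RpS10a was not tested. Of the 11 blood cell markers 5 fell (Sr-CI, eater, nimC1, Pxn and He) and 0 rose in S2-AbdA over S2 replicates 1 and 2, beside 7.36% and 3.0% of all tested genes. Over S2 replicates 3 and 4, 3 of them rose (eater by 2.36, nimC1 by 2.78 and Sr-CI by 2.28) and 1, Pxn, fell. The shares of all tested genes were 14.7% and 17.1%. In the second S2 set 7 of these markers were lower and 0 higher than in the first, beside 18.9% and 18.1% of all tested genes. Sr-CI, a scavenger receptor gene, was at 49.1 and 22.1 CPM in S2 replicates 1 and 2, 0.315 and 0.186 CPM in S2 replicates 3 and 4, and 0.780 and 2.29 CPM in S2-AbdA. The part of the cells' blood character in the members' values was not tested.

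The other genes of protein synthesis were read beside the share of all tested genes past the test, 10.4% over S2 replicates 1 and 2 and 31.8% over S2 replicates 3 and 4. Of 10 tested genes of elongation and release factors 0 changed in S2-AbdA over S2 replicates 1 and 2, also at an unadjusted p under 0.05. Over S2 replicates 3 and 4, 2 of them fell, eEF1delta (-1.21, adjusted p = 0.0319) and eIF-5A (-0.95, adjusted p = 0.0871). Among the most abundant factors, eEF2 (listed as Ef2b) was at 7535, 7222, 1403 and 4776 CPM in S2 and at 4354 and 7843 CPM in S2-AbdA. eEF1alpha1 (listed as Ef1alpha48D) was at 18977, 20335, 7150 and 12463 CPM in S2 and at 10983 and 17741 CPM in S2-AbdA. In both genes S2 replicate 3 was lowest and S2-AbdA replicate 1 below replicate 2.

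Of 28 tested genes of translation initiation and its control 0 changed over S2 replicates 1 and 2, with 2 at an unadjusted p under 0.05. Only eIF1 (listed as CG17737) fell over S2 replicates 3 and 4 (-1.10, adjusted p = 0.0564). Of 24 ribosome assembly genes 0 changed over S2 replicates 1 and 2, also at an unadjusted p under 0.05; over S2 replicates 3 and 4, 2 rose (pes and CG8801) and 9 fell. Between the S2 sets 7 of the 24 were higher in replicates 3 and 4, and the same pes and CG8801 were lower. Of all tested genes 18.1% were higher and 18.9% lower there, 37.0% in all. In both directions together the called share of these genes was thus close to that of all genes. Genes of a list named here beyond the 3 of smallest adjusted p were chosen after their values were seen. Those of smallest adjusted p were hoip (2.17, adjusted p = 0.00964), Nop56 (1.64, adjusted p = 0.0101) and NHP2 (1.78, adjusted p = 0.0134), which encode proteins of small nucleolar ribonucleoproteins. hoip was at 101 and 56.0 CPM in S2 replicates 1 and 2, 350 and 202 CPM in S2 replicates 3 and 4, and 92.6 and 63.3 CPM in S2-AbdA, so S2 replicates 3 and 4 stood above all other libraries. Of 5 genes of RNA polymerase I transcription, RpI12 was higher in the second S2 set than in the first (1.44, adjusted p = 0.0218), and so was Tif-IA (1.47, adjusted p = 0.0299).

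Among 19 regulators of growth and of ribosomal protein genes, 0 changed over S2 replicates 1 and 2, with 2 at an unadjusted p under 0.05. Xrp1, a transcription factor that acts in cells lacking 1 copy of a ribosomal protein gene, was at 963 and 1054 CPM in S2 replicates 1 and 2, 197 and 349 CPM in S2 replicates 3 and 4, and 1015 and 2042 CPM in S2-AbdA. It rose over S2 replicates 3 and 4 (2.21, SE 0.420, adjusted p = 0.00549) and was lower in these than in S2 replicates 1 and 2 (-1.64, adjusted p = 0.0181), while over the latter its value was 0.57 (adjusted p = 0.640). Myc (listed as dm), an activator of ribosomal protein genes, was at 4.97, 8.96, 23.0 and 61.2 CPM in S2 and at 63.9 and 5.98 CPM in S2-AbdA. Its S2-AbdA replicates lay near either end of that range. Its value of 2.27 over S2 replicates 1 and 2 did not pass the test (adjusted p = 0.131), whereas it was higher in the second S2 set than in the first (2.80, adjusted p = 0.0325).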

How the data were processed

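RNA counts from 6 libraries were analysed, grouped by their titles. The authors deposited raw counts per gene, not normalized, with dm3 coordinates per the labels, and a table of log2 values with p-values and FDR for 2122 genes. The submitters' processing notes name CASAVA, edgeR and dm3; the aligner, counter, annotation release and strand setting were not given in the sources used here. In the authors' table the column headed logConc held the log2 ratio of S2 over S2-AbdA (correlation with the ratio of counts -0.942 across genes) and was turned around.

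Counts were tested with edgeR 4.0.16 (limma 3.58.1, R 4.3.3): filterByExpr on 3 sets of libraries, TMM scaling, robust quasi-likelihood fit of all 6 libraries (common biological coefficient of variation 0.291, 3 residual degrees of freedom), Benjamini-Hochberg adjustment over all 9375 genes, threshold 0.10. Standard errors are the size of the log2 difference divided by the root of the F statistic. The scripts were tested on simulated data. CPM are counts over the library's total. Exonic lengths came from a later annotation through the gene number, for 14468 of 14770 genes. Per-sample columns without a sample numbered 0. Further steps used Python 3.11.15, pandas 2.3.3 and scipy 1.17.1.

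The members and gene lists were chosen with earlier results of these data known. Members named were both genes of each pair, the 3 highest and lowest in each comparison, the 3 highest and lowest levels, those past the test against the majority, sta, and up to 3 genes per other list; others are said to be chosen after their values were seen. Alternatives were DESeq2 1.42.0, other scalings, no filter, a replicate block, other sets of S2 libraries, a length correction and leaving out each library.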

Additional observations from a re-analysis of the deposited data

Results flagged for a closer look

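In groups of 4 or more libraries, a library was picked out where its gap to the nearest other, over the whole range of the group, passed Dixon's 95% critical value. Among 49 sets of 4 S2 values, 9 did so, and in all 9 the library was S2 replicate 3; chance picks out about 1 group in 20, and the 9 share that library. The summed share of counts in the members was 30.4% there. The main copies RpS10b (4556 CPM), RpS14a (1638 CPM), RpS15Aa (3246 CPM), RpS19a (3284 CPM), RpS28b (3473 CPM), RpL37a (3456 CPM) and RpL7 (6323 CPM) were high in that library. The share of RpL22-like in its pair was 0.166%, with 14 counts of the paralogue and RpL22 at its lowest. The same library had the lowest summed level of blood cell markers and a scaling factor of 0.752, and their part in these values was not tested.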

How the results depend on the processing

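Over S2 replicates 1 and 2, the calls of RpS10a and RpS5b were lost only where all 4 S2 libraries formed 1 group, with log2 fold changes of -2.95 (adjusted p = 0.219) and -2.0 (adjusted p = 0.511), 0 members lower and a median of -0.60. The number lower was 5 in a fit of replicates 1 and 2 alone, 2 to 5 leaving out each library, and 4 without S2 replicate 3 and S2-AbdA replicate 1 together, a choice made after seeing the data. Over S2 replicates 3 and 4, it was 15 on library size alone (median -0.54), 16 with the replicate block and 11 with the length correction (median -0.35). Leaving out each library gave 2 to 82 lower, 0 to 3 higher and a median of -1.35 to -0.36; without both named libraries 38 were lower and 1 higher, with a median of -0.44. Between the S2 sets, 7 members were higher on library size alone (median 0.44), 7 with upper quartile factors, 43 without a filter, 8 with the replicate block, and 8 with the length correction, where 5 were lower and the median was 0.24. Leaving out each library gave 0 to 73 higher, 0 to 5 lower and a median of 0.18 to 1.19; without both named libraries 6 were lower, with a median of 0.18. Library size alone moved the split of all calls to 66.3% higher from 46.3% (S2-AbdA over S2 replicates 3 and 4) and to 30.4% from 48.9% (between the S2 sets), and upper quartile factors moved the latter to 37.1%. Over TMM-scaled totals the summed share was 19.9% in S2 replicates 1 and 2, 31.3% ± 12.9 (SD, n = 2) in S2 replicates 3 and 4, with replicate 3 at 40.4%, and 17.1% in S2-AbdA. Per kilobase, the 10 paralogues held 6.80%, 7.61% and 7.55% of their pairs. Of 1496 values of named members under these alternatives, 1286 kept their direction or were uncalled on the same side of the threshold, 145 lost a call, 65 gained one and 0 called values turned direction. The replicate block used numbers that only name the libraries: differences of replicate 1 minus 2 in S2 and S2-AbdA had a correlation of -0.00683 across genes. The cause of these changes was not tested. Depth limits the 5 untested paralogues and -like genes.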
